A study of Mus musculus with 4 samples.

Results

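The splicing factors and heterogeneous nuclear ribonucleoproteins (hnRNPs) of the mouse seminal vesicle are described here from 4 arrays. Members were chosen by gene symbol alone: every probe set whose platform annotation gives 1 symbol of the Hnrnp, Srsf, Sf3a, Sf3b, Sf1, Snrp, U2af, Prpf, Tra2, Ptbp, numbered Rbm, Rbfox, Celf, Mbnl, Srrm, Srpk or Clk families. The rule found 110 of 12422 probe sets that are not controls, and these read 82 of the 8251 genes that any probe set reads alone. A further 10 probe sets name a gene of these families together with a pseudogene or neighbour, and they stayed outside. Each array held total RNA from the seminal vesicle of 1 mouse, snap frozen at 15 months, on Affymetrix Mu74AV2 GeneChips. All 4 mice were C57Bl/6J and Nkx3.1 +/+, that is, wild type for the prostate homeobox gene Nkx3.1. No other genotype, age or tissue was among the samples, so the questions are which splicing factors gave signal in this gland and whether any differed between the 4 mice. The labels give each array an animal number of its own. They state neither litter nor hybridisation batch, and p-values measure only the spread between these samples.

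Pre-mRNA splicing removes introns in a large RNA-protein machine, the spliceosome. The U1 particle reads the 5' splice site, the U2 particle and its helpers read the branch point and the 3' splice site, and the U4/U6.U5 tri-snRNP then joins to form the catalytic core. Sm proteins form a ring around most of the spliceosomal small nuclear RNAs. SR proteins, named for their serine and arginine repeats, mostly promote the use of nearby exons, hnRNP proteins often oppose them, and kinases of the Srpk and Clk families control SR proteins by phosphorylation. Factors such as Mbnl1, Rbfox2, Ptbp2 and the Celf proteins differ between tissues and shape tissue-specific exon choice. The seminal vesicle is a secretory gland of luminal epithelium wrapped in smooth muscle, so a bulk sample holds the splicing factors of both layers. In such a sample fewer cells of a type and less RNA per cell cannot be told apart.

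All values are RMA expression values on a log2 scale, so 1 unit is a doubling. Probes differ in how well they bind, so values of different probe sets do not show which gene has more RNA. Array medians ran from 4.95 to 4.98, and Pearson's r between arrays, taken across probe sets that are not independent of each other, from 0.992 to 0.994. The background limit of an array was the 90th percentile of its values for 111 genes known from other organs, such as liver, retina and pancreas, read by 141 probe sets. It lay at 6.17, 6.01, 6.09 and 6.23 in mice 1 to 4, with a mean of 6.13. Probe sets that exceeded the limit on all 4 arrays are called above the background range. Markers fitted the labelled tissue: 6 of 7 seminal vesicle secretion genes, 6 of 8 luminal genes and 11 of 13 smooth muscle genes were above the range. So were 0 of 4 basal, 0 of 7 testis and epididymis, 1 of 11 neuronal, 3 of 7 fibroblast, 1 of 6 endothelial, 5 of 12 macrophage and dendritic, 2 of 6 B and plasma cell, 1 of 6 T and NK cell, 1 of 3 erythrocyte and 2 of 5 prostate genes. One library stood apart in a prostate marker: Pbsn, which encodes the prostate secretory protein probasin, had 6.57 in mouse 1 against 3.02, 3.18 and 3.47. The other measured prostate genes did not follow: Psca was highest in mouse 3 (6.75), and Hoxb13 (6.27), Msmb and Sbp in mouse 4. Without mouse 1, 34 members were above the range, against 2961 of all 12422 probe sets. Of the members 0 were then called variable by the test described below, against 31 of all probe sets.

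Of the 110 member probe sets, 31 (28.2%) were above the background range, against 23.4% of all probe sets, which is a share near the background. A further 14 exceeded the limit on some arrays and 65 on none. By gene, 29 of 82 (35.4%) had at least 1 probe set above the range, against 28.5% of all 8251 genes. A value under the limit does not show that a gene was silent, since most spliceosome parts are needed in every cell. The members closest to the mean limit show how narrow the division is: Srsf4 (6.14), Hnrnpul2 (6.16) and Rbm4b (6.18) lay just above it, while Snrpb2 (6.13), Prpf31 (6.07) and Sf3b3 (6.04) lay on it or just below. None of these 6 probe sets exceeded the limit on all 4 arrays.

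**Figure D1:**
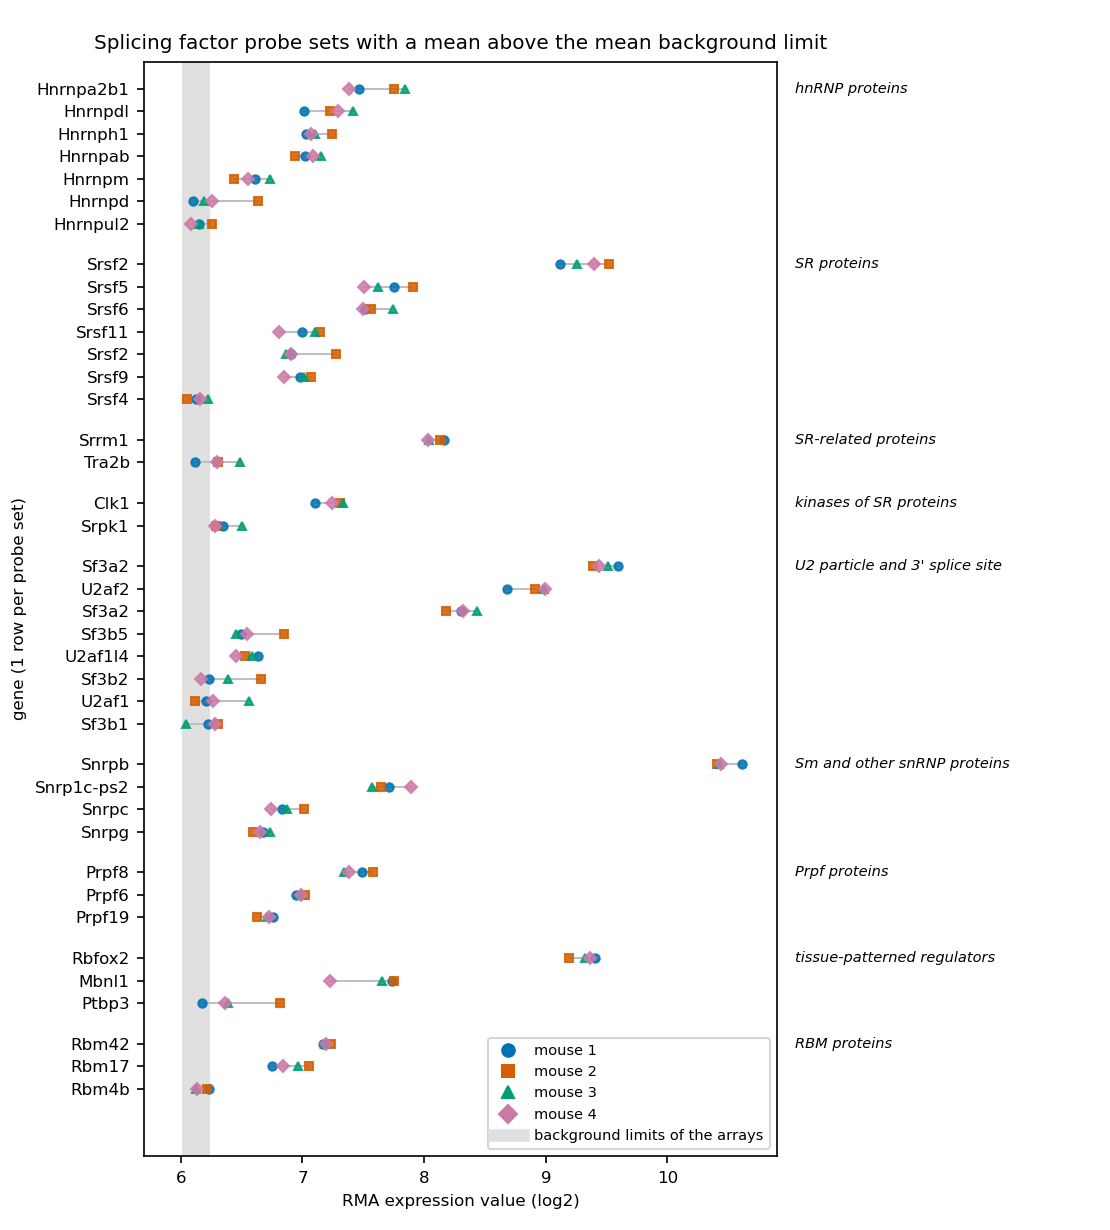
RMA values (log2) of the 39 member probe sets whose mean exceeds the mean background limit of 6.13, with 1 row per probe set, grouped by role, and 1 point per mouse. The grey band spans the background limits of the 4 arrays (6.01 to 6.23), and grey lines join the lowest and highest mouse of a row, which lie at most 0.64 log2 units apart, in Ptbp3.

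Among hnRNP proteins 5 of 16 genes were above the range: Hnrnpa2b1, Hnrnpab, Hnrnpdl, Hnrnph1 and Hnrnpm. Hnrnpa2b1, an RNA-binding protein also involved in RNA transport, had 7.47, 7.75, 7.84 and 7.39 in mice 1 to 4, or 7.61 ± 0.22 (SD, n = 4). Mice 2 and 3 were the higher pair and mice 1 and 4 the lower one, and the difference was not called (adjusted p = 0.973, limma). Hnrnph1, which binds runs of G, was steadier at 7.03, 7.24, 7.10 and 7.07. Hnrnpdl had 7.01, 7.23, 7.42 and 7.30, and was lowest in mouse 1. Hnrnpd, which binds AU-rich elements of messenger RNAs, passed the limit in 3 of the mice, with 6.10 in mouse 1 against 6.63, 6.19 and 6.25. Hnrnph2 (3.23 ± 0.19), Hnrnpc (3.55 ± 0.37) and Hnrnpa1 (4.31 ± 0.11) were under the limit on every array. The last 2 encode abundant core hnRNP proteins of most cells.

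SR proteins were above the range in 5 of 9 genes. Srsf2, a classic SR protein that marks nuclear speckles, had 9.12, 9.52, 9.26 and 9.40 on its brighter probe set and 6.90, 7.28, 6.87 and 6.91 on the other. Both probe sets were highest in mouse 2. On the brighter one mouse 4 came next, on the other mice 1, 3 and 4 lay together. Srsf5 had 7.75, 7.91, 7.62 and 7.50, Srsf6 had 7.52, 7.57, 7.75 and 7.50, and the range over the mice was 0.40 for Srsf5 and 0.25 for Srsf6. Srsf9 (6.98 ± 0.09) and Srsf11 (7.01 ± 0.15) were also above the range and were lowest in mouse 4. Srsf1, a founding SR protein, is read by 4 probe sets, none of which exceeded the limit on any array, at means of 4.22, 4.16, 3.26 and 2.68. Srsf3 (5.83 ± 0.23) and Srsf10 (5.61 ± 0.16), by their brighter probe sets, were not above the range either.

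Of the SR-related proteins, Srrm1, a coactivator that bridges SR proteins and the spliceosome, was above the range and nearly level between mice, at 8.16, 8.13, 8.04 and 8.04. Tra2b, which promotes inclusion of exons with GA-rich enhancers, had 6.12, 6.31, 6.48 and 6.30 and missed the limit in mouse 1. The Srrm2 probe set read 2.24 ± 0.02. Among the kinases, Clk1, a nuclear kinase, had 7.11, 7.31, 7.33 and 7.24, and Srpk1, its mainly cytoplasmic counterpart, had 6.34, 6.29, 6.50 and 6.28. These were the 2 of 7 kinase genes above the range. Clk4 (4.81 ± 0.08, brighter probe set), Srpk2 (4.19 ± 0.13) and the muscle-enriched Srpk3 (4.52 ± 0.15) stayed under the limit on every array.

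At the 3' splice site the 2 subunits of U2AF gave signal in every mouse. U2af2, which binds the polypyrimidine tract, had 8.68 in mouse 1 against 8.91, 8.99 and 8.99, so mouse 1 was the lowest and the other 3 lay together. U2af1, which reads the terminal AG of the intron, had 6.21, 6.12, 6.56 and 6.26, and its relative U2af1l4 had 6.55 ± 0.08. Of the U2 particle proteins, Sf3a2 had 9.59, 9.39, 9.51 and 9.44, and a second probe set was also above the range at 8.31 ± 0.10. Sf3b5, a small SF3B subunit, had 6.49, 6.85, 6.46 and 6.54, with mouse 2 apart from the other mice. Sf3b2 (6.36 ± 0.22) was likewise highest in mouse 2, at 6.66, but missed the limit in mouse 4. Sf3a1 (5.28 ± 0.16), Sf3b6 (5.36 ± 0.07) and Snrpa1 (4.26 ± 0.15) stayed under the limit on every array. In all, 5 of 14 genes of the group were above the range.

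Among the Sm and other snRNP proteins, 4 of 6 symbols were above the range. Snrpb, which encodes the Sm proteins B and B', had 10.61, 10.41, 10.42 and 10.44 on its brighter probe set. Snrpc, a U1-specific protein that helps read the 5' splice site, had 6.83, 7.02, 6.87 and 6.74, and the Sm ring protein gene Snrpg had 6.67, 6.59, 6.74 and 6.65. A probe set annotated to Snrp1c-ps2, which by its symbol is a pseudogene, read 7.70 ± 0.14, and whether it reads the transcripts of a related functional gene was not tested. The Sm genes Snrpd3 (4.15 ± 0.16) and Snrpe (5.74 ± 0.33) were not above the range. Of the Prpf genes 3 of 8 were above: Prpf8, at the catalytic centre, with 7.49, 7.58, 7.34 and 7.38, the tri-snRNP bridge protein Prpf6 with 6.95, 7.02, 6.99 and 6.99, and the ubiquitin ligase Prpf19 with 6.76, 6.63, 6.71 and 6.72. The mice differed little in these genes, by at most 0.24 log2 units. Prpf4b, Prpf39 and Prpf38b had 2.99 ± 0.13, 2.64 ± 0.03 and 4.45 ± 0.25.

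Of the tissue-patterned regulators, 2 of 7 genes were above the range, Mbnl1 and Rbfox2. Mbnl1, which drives adult exon choice in muscle, read 7.74, 7.75, 7.65 and 7.22. Mouse 4 was the lowest, the other 3 mice lay close together, and the difference was not called (SD 0.25, adjusted p = 0.917, limma). Without mouse 4 the SD was 0.05. Rbfox2, which binds GCAUG elements, had 9.40, 9.19, 9.32 and 9.36 on its brighter probe set. Ptbp3, a relative of the polypyrimidine tract protein, had 6.17, 6.81, 6.39 and 6.36. Ptbp2 and Celf4, best known from neurons, stayed under the limit on every array, at 4.61 ± 0.15 (brighter probe set) and 2.80 ± 0.03. So did Celf2 (3.75 ± 0.18) and Celf1 (5.24 ± 0.12), given by their brighter probe sets. Smooth muscle markers above the mean limit were highest in mouse 1 in 11 of 11 genes, with a mean deviation there of 0.34. The measured genes of that list under the mean limit did not follow: Flna was lowest in mouse 1 (2.74), and the brighter Tpm2 probe set was highest in mouse 3 (5.71). The brighter Rbfox2 probe set was also highest in mouse 1, and Mbnl1 in mouse 2 by a small margin. The dimmer Rbfox2 probe set, under the limit, was lowest in mouse 1 (4.15) and highest in mouse 4 (4.55). Of the 12 macrophage and dendritic genes, the 7 with a mean above the mean limit were all lowest in mouse 4, as Mbnl1 was, with a mean deviation of -0.34. The other 5, under it, did not all follow, and the brighter Csf1r probe set was lowest in mouse 1. The plasma cell genes Igha and Ighm were, on their brightest probe sets, lowest in mouse 4 too, with a mean deviation of -1.32. Dimmer Ighm probe sets did not all follow. The other measured B and plasma cell genes, under the mean limit, were mixed. Jchain was lowest in mouse 4 (5.20) and Cd79a was highest there (6.17). Cd79b was lowest in mouse 2 and the brighter Ms4a1 probe set in mouse 1. Cd68, Adgre1 and Csf1r, which define macrophages, were under the limit on every array. The part of these cells in the values of Mbnl1 and Rbfox2 was not tested.

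The RBM proteins, a mixed class defined by their RNA recognition motifs, were above the range in 2 of 12 genes. Rbm17, which acts in 3' splice site choice, had 6.75, 7.05, 6.97 and 6.84, and Rbm42 had 7.16, 7.23, 7.18 and 7.19. Rbm42 had an SD of 0.03, among the smallest of the members. Rbm4b had 6.23, 6.22, 6.13 and 6.13 and missed the limit in mouse 4. Rbm6 (3.90 ± 0.08), Rbm25 (3.61 ± 0.13) and Rbm22 (2.46 ± 0.09) were under the limit on every array, and Rbm8a, part of the exon junction complex, had 5.63 ± 0.07 outside the rule for named genes.

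The second question was whether any member differed between the 4 mice beyond the general spread of the arrays. Each mouse had 1 array, so a difference between mice cannot be told apart from one between arrays or RNA preparations. Each probe set's variance was set against the prior variance that limma fitted over all 12422 probe sets. None of the 110 members was called at an adjusted p of 0.05 (0 calls, lowest adjusted p = 0.208, limma), where 0.282% of all probe sets were. At an unadjusted p under 0.05 stood 8 members, or 7.27%, against 5.44% of all probe sets. Of the 39 members with a mean above the mean limit 1 did, Ptbp3, where 7.92% of all such probe sets did. The largest SD of a member was 0.49 log2 units, and the smallest SD of any called probe set was 0.55. No probe set of the array with an SD as small as those of the members was thus called. The lack of a call does not show that the mice were alike.

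**Figure D2:**
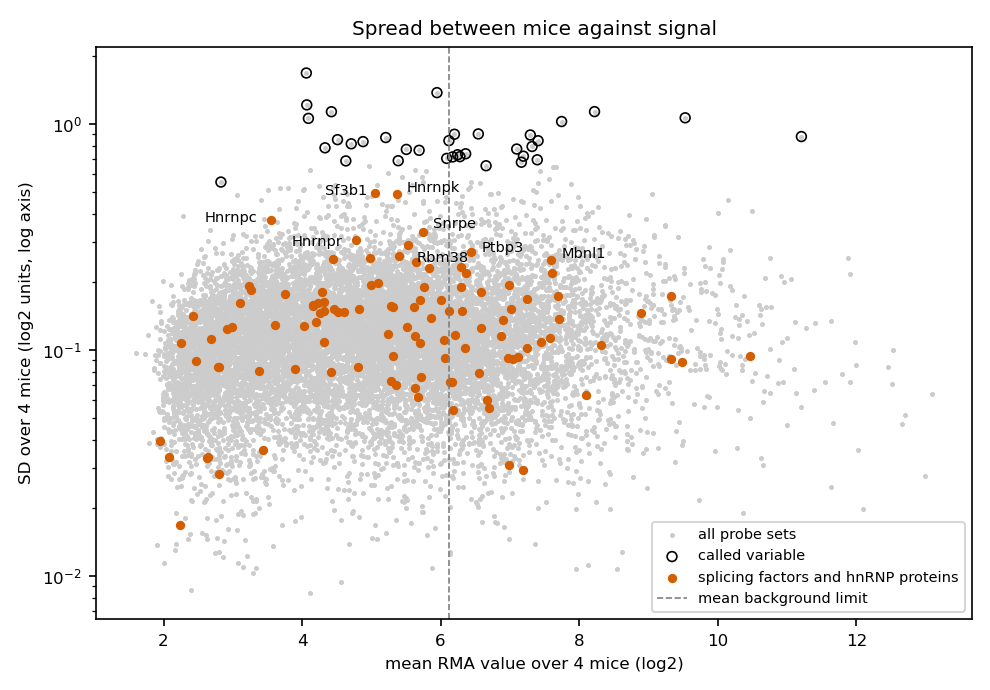
SD over the 4 mice (log2 units, log axis) against the mean RMA value (log2) of 12422 probe sets in grey, with the 110 member probe sets in orange, the 35 called probe sets circled and the mean background limit of 6.13 dashed. No circled point is orange, and the highest orange points, Sf3b1 and Hnrnpk, have SDs of 0.49.

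The SD of the members had a median of 0.129 (quartiles 0.0884 and 0.172), against 0.112 (0.0777 and 0.157) over all probe sets. With only probe sets above the mean limit the medians were 0.113 for the members and 0.114 for all probe sets. Among the roles the median SD was lowest for the Prpf proteins, at 0.0674, and highest for the SR proteins, at 0.159. These are descriptions of 7 to 22 probe sets in the larger roles and of 4 in the SR-related proteins. Of the 110 members 1, Hnrnpk, had a range over 1 log2 unit, as had 94 of all 12422 probe sets. A range over 0.5 was found in 13 members (11.8%), against 8.54% of all probe sets.

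The 7 members other than Ptbp3 with an unadjusted p under 0.05 were all under the mean limit, so that the size of their differences is uncertain, and they were picked after their values were seen. Hnrnpk, a KH-domain protein that binds C-rich RNA, stood at 6.09 in mouse 2, against 5.19, 5.13 and 5.05 in the other mice. Mouse 2 lay apart from a tight group, and the SD fell from 0.49 (adjusted p = 0.208, limma) to 0.07 without that mouse. Sf3b1, the subunit that holds the branch site, had on its dimmer probe set 5.55 and 5.41 in mice 2 and 3 against 4.67 and 4.59 in mice 1 and 4, with an SD of 0.49 (adjusted p = 0.21, limma). The brighter Sf3b1 probe set did not share this division, at 6.22, 6.30, 6.05 and 6.28. Snrpe, a Sm ring protein, had 5.61, 6.18, 5.78 and 5.40 and was again highest in mouse 2.

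Of the other 4, Hnrnpc, which binds U tracts, had 3.86 and 3.89 in mice 1 and 3 against 3.33 and 3.14 in mice 2 and 4. Hnrnpr had 4.37 in mouse 1 against 5.05, 4.97 and 4.74. The mice that stood apart thus differed from gene to gene. Rbm38, an RNA-binding target of p53, had 5.91 in mouse 1 against 5.24, 5.39 and 5.59, and Sf3a3 had 5.76 in mouse 3 against 5.20, 5.44 and 5.22 in the others. Ptbp3, the member above the mean limit, had its highest value in mouse 2 and its lowest in mouse 1 (SD 0.27, adjusted p = 0.834, limma), and the SD was 0.12 without mouse 2. Some other measures were at an extreme in mouse 2 and others were not. The SD across all probe sets of the array was largest there, at 1.78 against 1.75, 1.76 and 1.74. The array median was lowest, at 4.95 against 4.98, 4.98 and 4.96. Pearson's r of array 2 with arrays 1, 3 and 4 was 0.9916, 0.9923 and 0.9920, against 0.9939, 0.9939 and 0.9926 among those. The difference between the 3' and 5' probe sets for actin, a measure of RNA integrity, was smallest in mouse 2, at 0.817 against 1.08, 1.02 and 0.982. The same difference for Gapdh was -0.147 in mouse 2, within the range of the other mice (-0.150 to -0.116). The red cell gene Hba-a1 was highest there, at 8.51 against 7.88, 7.71 and 8.39. Their part in the values of mouse 2 was not tested.

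Member genes were highest in mouse 2 more often than in any other mouse. With 1 probe set per gene and means above the mean limit, mouse 2 held the highest value of 17 of 37 genes (45.9%), where mouse 3 held that of 11, mouse 1 of 7 and mouse 4 of 2. Over all 2638 genes under the same filter the shares of these mice, in the same order, were 30.4%, 26.8%, 23.2% and 19.6%. The lowest value of a member gene came from mouse 4 for 12 genes, from mouse 1 for 11, from mouse 2 for 9 and from mouse 3 for 5, where the shares over all genes were 22.2%, 24%, 30.3% and 23.5%. With the arrays shifted to the same median mouse 2 was highest in 20 member genes, against 35.9% of all genes, and with the arrays quantile normalized again in 14, against 24.9%. No test was made of these counts, since genes are not replicates. Cell type markers above the mean limit also deviated in mouse 2. Luminal epithelium deviated by 0.12 (4 of 7 genes highest there), secretion genes by 0.10 (3 of 6) and macrophage and dendritic genes by 0.12 (0 of 7). Smooth muscle deviated by -0.18 (0 of 11), and Igha and Ighm by 0.78 (1 of 2). Among B and plasma cell genes under the mean limit, the brighter Ms4a1 probe set was highest in mouse 2 and Jchain in mouse 3. Cd79a and Cd79b were lowest in mouse 2. The part of these cell types in the counts was not tested.

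The shifts behind these counts were small. The mean deviation of the 37 genes from their own 4-mouse means was -0.04, 0.06, 0.03 and -0.05 in mice 1 to 4, where all 2638 genes had -0.01, 0.02, 0.00 and -0.01. SR proteins had -0.04, 0.09, 0.04 and -0.09 over 6 genes, of which 4 had their maximum in mouse 2 and 4 their minimum in mouse 4. The hnRNP proteins had -0.09, 0.06, 0.08 and -0.05 over 7 genes, with 0 highest in mouse 1 or mouse 4. The U2 particle and 3' splice site genes had -0.04, 0.06, 0.02 and -0.03 over 7 genes. Snrpb, Snrpc, Snrpg and Snrp1c-ps2 together had 0.03, -0.01, -0.03 and 0.01, and each was highest in a different mouse.

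**Figure D3:**
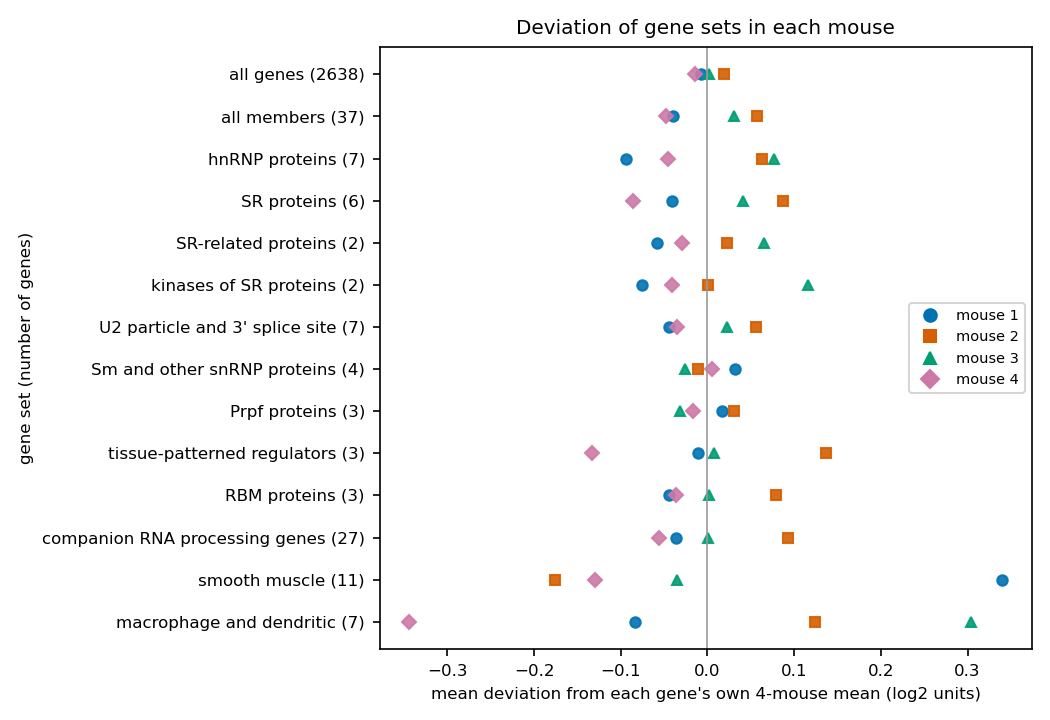
Mean deviation (log2 units) of the genes of each set from their own 4-mouse means, with 1 point per mouse and the number of genes in brackets, over genes with a mean above the mean background limit. The points of the member roles lie between -0.13 and 0.14, and the 2 marker lists drawn have 0.34 (smooth muscle, mouse 1) and -0.34 (macrophage and dendritic, mouse 4).

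Other RNA processing genes were counted from a list of 127 symbols for helicases, cleavage and polyadenylation factors, export factors and further RNA-binding proteins, of which 92 were measured. Of these, 23 genes were above the background range, where 28.5% of all genes were. By probe set the share was 21.2%, against 23.4% of all probe sets. Of the 118 probe sets 0 were called by limma, where 0.282% of all probe sets were. The lowest adjusted p was 0.208, and 13 (11.02%) had an unadjusted p under 0.05, against 5.44% of all probe sets. The 5 with the largest SD above the mean limit, picked by that SD, were all highest in mouse 2. Of all 27 listed genes above the mean limit 11 were highest in mouse 2, where 30.4% of all genes under the same filter were. Cirbp, a cold-inducible RNA-binding protein, had 6.09, 6.53, 5.83 and 6.34, and the helicase gene Ddx5 had 6.73, 7.34, 6.99 and 6.75. Nono, a paraspeckle protein, had 7.12, 7.69, 7.33 and 7.10. Pcbp2, which binds C-rich RNA, had 8.17, 8.79, 8.45 and 8.30, and mouse 3 came second in Ddx5, Nono and Pcbp2. Pabpc1, the cytoplasmic poly(A)-binding protein, had 9.76, 10.10, 9.54 and 9.88. Over the 27 listed genes above the mean limit the mean deviation was -0.04, 0.09, 0.00 and -0.06. The epithelial splicing regulator Esrp1, chosen after its values were seen, was above the range at 6.43, 6.80, 6.30 and 6.57, and Esrp2 was not, at 5.55 ± 0.15.

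Probe sets of the same gene sometimes fell on different sides of the background limit. Of the 82 genes 25 had more than 1 probe set, 53 in all. In 7 genes some probe sets were above the background range and others were not, in 2 genes (Srsf2 and Sf3a2) all were, and in 16 none was. The 7 genes were Snrpb, Rbfox2, Hnrnpa2b1, Hnrnpab, Srrm1, Hnrnpdl and Prpf19. Snrpb had 10.47 ± 0.09 on one probe set and 1.95 ± 0.04, far under the limit, on the other. Rbfox2 had 9.32 ± 0.09 against 4.29 ± 0.18, Hnrnpa2b1 7.61 ± 0.22 against 3.11 ± 0.16 and Hnrnpab 7.05 ± 0.09 against 2.91 ± 0.12. Srrm1 (8.09 against 4.46), Hnrnpdl (7.24 against 4.83 and 2.25) and Prpf19 (6.70 against 5.28) were of the same kind. For these 7 genes the choice of probe set decides whether a gene counts as above the range. A value under the limit was not told apart from background signal, so the size of such a gap is uncertain. Both probe sets of Sf1, which binds the branch point (5.76 and 2.42), and of Hnrnpu, a chromatin-associated hnRNP (5.71 and 2.79), were under the limit.

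The same mouse was highest on all probe sets of a gene in 9 of 25 genes, and the same mouse was lowest in 9. No such count was made over the other genes of the array, so whether the members differ from them in this is not known. The suffix of a probe set records its design: those ending in _f_at read a sequence family, those in _s_at are shared between transcripts, and those in _r_at were picked with selection rules dropped. The bright probe sets of Snrpb, Rbfox2 and Sf3a2 all end in _r_at, and those of Srsf2 in _s_at. Of the member probe sets, 3 of 11 with _r_at, 2 of 11 with _f_at, 3 of 4 with _s_at and 23 of 84 with a plain _at were above the range. Over all probe sets the shares were 20.6%, 23.9%, 28.0% and 23.3%.

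**Figure D4:**
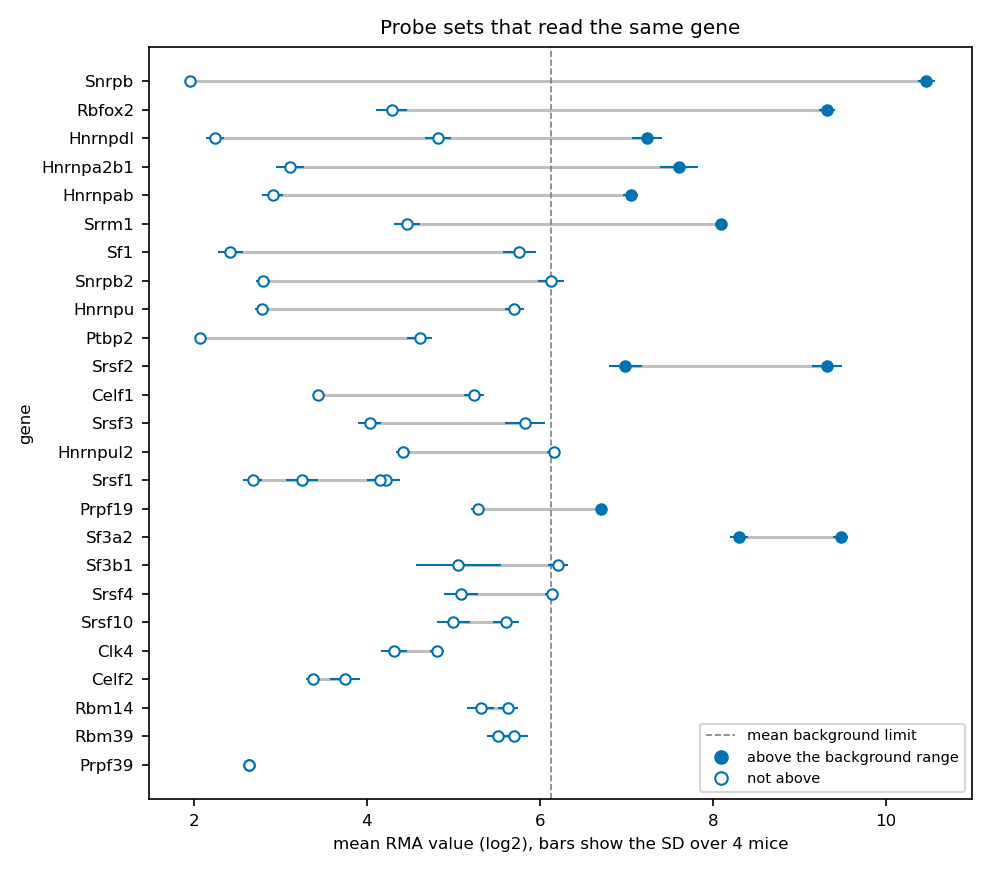
Mean RMA values (log2) of the probe sets of the 25 member genes read by more than 1, with bars for the SD over 4 mice and a dashed line at the mean background limit of 6.13. Filled circles are above the background range on all 4 arrays, and 7 genes have both filled and open circles.

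The upstream sequences of the member genes were examined for features that a choice by symbol did not use. RefSeq start sites of GRCm38.p6 gave 91 windows of 250 bases for 70 of the 82 genes. The 12 genes without a window include Snrpb, Rbfox2, U2af2, Clk1 and Sf3b5, which were above the background range. Each window ends at the base before the annotated start. Windows of member genes were rich in CpG, with a median of 19 CpG pairs and an observed over expected ratio of 0.864, against 14 and 0.665 for the 8409 windows of all genes that a probe set reads alone. The GC content was closer, at 60.8% against 58.8%.

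The windows of 4 genes are printed because their members were highest in mouse 2 on at least 1 probe set and because they show the kinds of window found. Srsf2 was also above the background range on both of its probe sets. They read 5' to 3' towards the start, and capitals mark CCGGAA (the core bound by ETS factors), GGGCGG (the GC box bound by Sp factors), CCAAT (bound by NF-Y) and TATAAA (the TATA box), each on either strand.
Hnrnpk, chr13:58402118-58402367, minus strand: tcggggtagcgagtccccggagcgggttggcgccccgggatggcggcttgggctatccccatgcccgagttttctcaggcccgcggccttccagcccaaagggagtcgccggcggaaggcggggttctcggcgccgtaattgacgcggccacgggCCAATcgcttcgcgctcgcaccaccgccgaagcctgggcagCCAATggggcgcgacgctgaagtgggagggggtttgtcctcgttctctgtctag
Sf3b1, chr1:55027479-55027728, minus strand: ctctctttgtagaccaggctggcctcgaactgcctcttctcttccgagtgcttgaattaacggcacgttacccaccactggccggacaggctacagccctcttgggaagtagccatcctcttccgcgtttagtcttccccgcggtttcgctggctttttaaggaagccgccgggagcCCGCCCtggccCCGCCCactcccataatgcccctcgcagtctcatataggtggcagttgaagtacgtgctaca
Snrpe, chr1:133610281-133610530, minus strand: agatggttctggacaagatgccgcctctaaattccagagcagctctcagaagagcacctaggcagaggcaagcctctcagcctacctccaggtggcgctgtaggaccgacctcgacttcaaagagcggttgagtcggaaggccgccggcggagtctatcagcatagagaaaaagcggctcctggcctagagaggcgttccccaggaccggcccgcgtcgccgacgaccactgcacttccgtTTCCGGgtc
Srsf2, chr11:116853095-116853344, minus strand: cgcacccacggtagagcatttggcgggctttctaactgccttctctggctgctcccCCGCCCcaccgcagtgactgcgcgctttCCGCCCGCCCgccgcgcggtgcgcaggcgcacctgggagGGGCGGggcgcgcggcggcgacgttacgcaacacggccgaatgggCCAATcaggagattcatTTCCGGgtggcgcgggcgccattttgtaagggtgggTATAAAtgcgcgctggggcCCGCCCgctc

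The window of Hnrnpk holds 2 CCAAT letters and no GC box or ETS core, and has 30 CpG pairs. That of Sf3b1 holds 2 GC boxes, that of Snrpe 1 ETS core close to the start, and that of Srsf2 5 GC boxes, 1 ETS core, 1 CCAAT and 1 TATAAA. These windows shared no single motif of the 4. The genes were picked with their values known, and no windows of members highest in other mice were set beside them. Across the member windows CCGGAA was found in 35.2%, against 18.6% of the windows of all genes read alone. GGGCGG was in 60.4% against 52.8%, CCAAT in 44.0% against 34.6% and TATAAA in 8.79% against 8.93%. The hexamer AGAACA, which the androgen receptor can bind as an arm of its longer element, was in 7.69% against 12.1%. TGACGTCA (the cyclic AMP response element) was in 2.20% against 2.21%, and CACGTG (an E-box) in 4.40% against 8.22%. A match of letters is a description of the window and says nothing of binding in this gland.

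**Figure D5:**
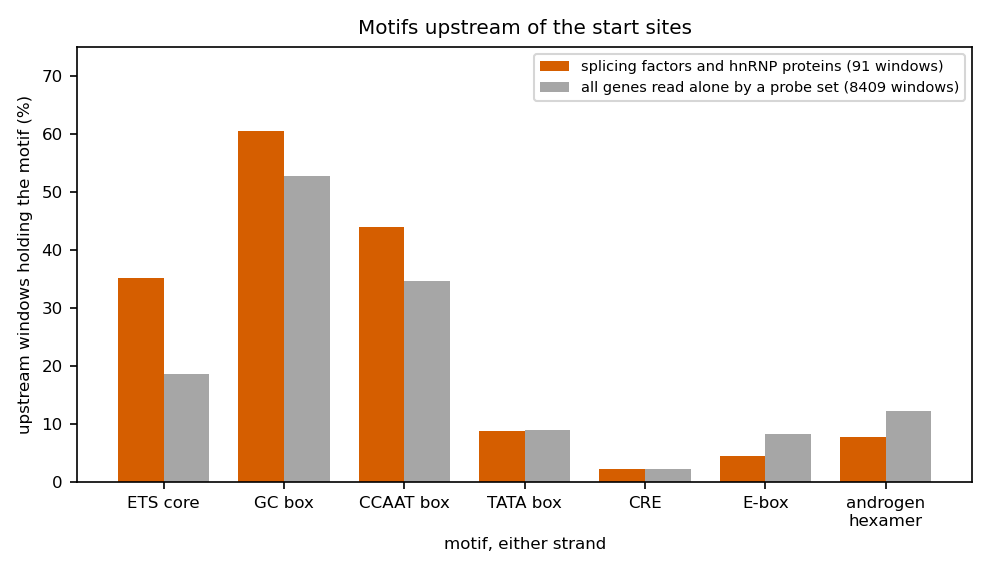
Share of upstream windows of 250 bases (%) that hold each motif on either strand, for the 91 windows of the splicing factor and hnRNP genes in orange and the 8409 windows of all genes read alone by a probe set in grey. The ETS core is in 35.2% against 18.6%, and TATAAA in 8.79% against 8.93%.

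Windows of the genes above the background range, which cover 23 of the 29 such genes, were set beside those of the other members. The median CpG ratio was 0.988 in the former against 0.843 in the latter. CCGGAA was in 13 of 32 windows against 19 of 59, GGGCGG in 20 of the former against 35 of the latter and CCAAT in 17 (53.1%) against 23 (39.0%). Several windows belong to the same gene, and no test of these shares was made.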

How the data were processed

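The authors deposited 1 log2 value for each probe set and array, computed by RMA according to the submitters' processing notes. The method subtracts background, equalises the distributions of the arrays and combines the probes of each set, which compresses differences at low signal and takes out shifts that all probe sets share. The log2 scale was read from the values, since neither it nor a version of RMA is stated. Control probe sets (66) were left out. Gene symbols are those of the platform annotation, and RefSeq's symbols for the same gene IDs did not differ for any member.

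The test for differences between mice set the variance of each probe set over 4 arrays (3 residual degrees of freedom) against limma's robust prior with a trend on mean signal (8.06 prior degrees of freedom) in an upper-tail F test, with Benjamini-Hochberg adjustment over 12422 probe sets at 0.05. Precision is limited by the number of arrays, which is 4. Mice were numbered in series order, which only names them. For counts by mouse the probe set with the highest mean stood for its gene. The rule for named genes took, per role, the 3 genes of highest mean and the 2 of largest SD above the mean limit and up to 3 of lowest mean, the 3 members just above and just below the limit, up to 12 genes whose probe sets disagree, members above the mean limit with an unadjusted p under 0.05, called members, and the 5 companion genes of largest SD. Celf1, Hnrnpk, Hnrnpm, Hnrnpr, Rbm38, Rbm8a, Sf3a3, Srsf9, Srsf11, U2af1l4 and both Sf3b1 probe sets were named after their values were seen. Members, lists and tests were chosen with earlier results of these data known. Protein sequences were not used here. Alternatives covered leaving out each mouse, rescaling, other prior fits, filters and limits. Work used R 4.3.3, limma 3.58.1, Python 3.11.15 and matplotlib 3.10.9.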

Additional observations from a re-analysis of the deposited data

Results flagged for a closer look

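In 7 member probe sets 1 mouse lay far from the other 3, with a gap to the nearest mouse that took a larger share of the whole range than Dixon's 95% critical value for 4 values. That is 6.36% of the members, against 5.09% of all probe sets, and chance gives about 1 in 20 such groups. The share of the range taken by the gap was 0.869 for Hnrnpk, where mouse 2 was high. It was 0.866 for the brighter Hnrnpu probe set, at 5.87 in mouse 2 against 5.65, 5.67 and 5.64, and 0.899 for the dimmer Srsf2 probe set, at 7.28 in mouse 2 against 6.90, 6.87 and 6.91. Mouse 1 was apart in a further 3: high for Sf3a1 (0.883; 5.52 against 5.20, 5.23 and 5.19), high for the brighter Snrpb probe set (0.849; 10.61 against 10.41, 10.42 and 10.44), and low for the dimmer Srrm1 probe set (0.845; 4.24 against 4.54, 4.52 and 4.57). Prpf31 had mouse 4 apart (0.896; 6.20 against 6.03, 6.01 and 6.02). None of the 7 was called by limma, with adjusted p from 0.208 for Hnrnpk to 0.995.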

How the results depend on the processing

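None of the 110 members was called by limma under any alternative run: leaving out each mouse, both rescalings, both other prior fits, both filters on signal (which kept 39 and 69 members) and the mean of a gene's probe sets. The lowest adjusted p among the members was 0.0875, for Hnrnpk without mouse 3, and the others ran up to 0.924. The companion list also had 0 calls without each mouse and with the prior fit that is not robust. Over all probe sets the 35 calls became 31 without mouse 1, 23 without mouse 2, 44 without mouse 3, 17 without mouse 4, 24 with arrays shifted to the same median, 29 with arrays quantile normalized again, 25 with a robust prior without a trend, 15 with a prior fit that is not robust, 3 with the mean of a gene's probe sets, 1 above the median signal and 0 above the mean background limit. The filters and the mean over a gene tested fewer features. Of the members, 61 instead of 31 were above the range with the 75th percentile of other-organ probe sets as limit, 65 with each array's median, and 23 with the 95th percentile. Over all 12422 probe sets these counts were 5274 instead of 2901, 5834 and 1890, so they moved with the limit too. Leaving out a mouse gave 31 to 34 members, and 2910 to 3036 of all probe sets. The median SD of the members was 0.113 with only those above the mean limit, and 0.105 to 0.128 without 1 mouse, lowest without mouse 2. The mean deviation per mouse kept its sign in all 4 mice under every alternative run. Both rescalings were tried on the counts per mouse after seeing the data: 14 to 20 of 37 member genes were highest in mouse 2, and 4 instead of 2 were highest in mouse 4 with arrays quantile normalized again. No paired analysis was possible because the labels give 1 group only. Values under the background limit are compressed, so differences of dim members are uncertain.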

Other observations

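Probe sets that name a splicing factor together with a pseudogene or neighbour were outside the rule, and 4 of the 10 were above the background range. The probe set shared by Rbm3, a cold-inducible RNA-binding protein, and a pseudogene of it read 6.68, 7.38, 6.61 and 6.87 in the order of the mice, with an SD of 0.35 that limma did not call (adjusted p = 0.549). Cirbp, the related cold-inducible gene described above, had the same order of mice 2, 4, 1 and 3 from high to low, and neither was called. Those shared by Snrpa (6.78 ± 0.03), Snrpd2 (8.14 ± 0.13) and Hnrnpa3 (7.89 ± 0.05) were also above the range and nearly level between mice. The nucleolin gene Ncl of the companion list, picked after its values were seen, had 5.67, 6.70, 5.77 and 6.19 with an SD of 0.47 (adjusted p = 0.208, limma), the largest SD of that list, with its mean of 6.08 under the mean limit.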
